A study of Homo sapiens with 12 samples.

Results

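The ELR-positive CXCL chemokines examined here are CXCL1, CXCL2, CXCL3, CXCL5, CXCL6 and CXCL8. They were taken by gene name as the listed chemokine genes of the cluster on chromosome 4, which made 6 of the 60504 gene entries of the deposited tables, each read in all 12 RNA sequencing libraries. The libraries came from T24 cells, a line grown from a human bladder tumour. One set held 2 libraries labelled knockout U11 and 2 libraries labelled untreated. The other set held 6 libraries labelled overexpression U11, 2 each of the line labels 79, 86 and 87, and 2 libraries labelled untreated. U11 is the small nuclear RNA of the minor spliceosome that recognises the start of U12-type introns. By the study's methods, the knockout was made with CRISPR/Cas9 and a pair of guide RNAs followed by single-cell cloning, and the overexpression by stable transfection of the plasmid pcDNA-U11 followed by monoclonal selection, so that a group can carry features of its clone. The sources used here do not say what the line labels 79, 86 and 87 stand for, nor whether libraries of a group came from separate cultures, so the P values measure the spread between these libraries, which may be technical. The overexpression set fell into a first and a second library batch by the prefixes of its titles, each with 1 control and 1 library of each line label.

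The members are small secreted proteins that attract neutrophils. They carry the amino acids glutamate, leucine and arginine (ELR) directly before the first cysteine. This is the feature by which they bind the receptors CXCR1, CXCR2 or both, depending on the member. CXCL8, also called interleukin 8, is the best known of them. CXCL1, CXCL2 and CXCL3, the GRO chemokines, are close paralogs, as are CXCL5 and CXCL6. In epithelial and tumour cells these genes are induced by interleukin 1 and TNF through the transcription factor NF-kappa B, and AU-rich elements in their 3′ untranslated regions make their mRNAs short-lived.

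CXCL8 (ENSG00000169429) lies at chr4:73740506-73743716, CXCL6 (ENSG00000124875) at chr4:73836497-73849064 and CXCL1 (ENSG00000163739) at chr4:73869393-73871242, all on the plus strand of hg38 as the deposited tables give it. CXCL5 (ENSG00000163735) lies at chr4:73995642-73998779, CXCL3 (ENSG00000163734) at chr4:74036589-74038807 and CXCL2 (ENSG00000081041) at chr4:74097035-74099293, all on the minus strand. The entry of CXCL6 overlaps the pseudogene PPBPP1, which was under 1 TPM (TPM is a transcript level divided by transcript length and set to an equal total for every library) in every library.

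The codons of the shared motif were read from the canonical transcripts of GENCODE release 44, and are shown because they define the family. The capitals mark the 3 codons for glutamate, leucine and arginine, and the lower case letters the codons from the first to the second cysteine. Their position was found by translating each coding sequence, and 1 match was found per gene.
CXCL1: GAACTGCGCtgccagtgc
CXCL2: GAACTGCGCtgccagtgc
CXCL3: GAACTGCGCtgccagtgc
CXCL5: GAGCTGCGTtgcgtttgt
CXCL6: GAGCTGCGTtgcacttgt
CXCL8: GAACTTAGAtgtcagtgc
CXCL1, CXCL2 and CXCL3 held the same 18 bases, CXCL5 and CXCL6 shared the ELR codons with each other, and CXCL8 used a different set of codons. No stretch of 100 bases of the transcript of any of the 6 genes was found in the transcript of another one of them. All 6 canonical transcripts had 4 exons.

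The 150 bases before each transcription start are shown because the 6 genes moved together in the libraries labelled knockout and share a sequence there. They are from RefSeq (GRCh38.p14), where all 6 symbols were matched, and the starts are those of RefSeq. Except for CXCL1, these starts lie inside the deposited gene entries given above. The windows of CXCL2, CXCL3, CXCL5 and CXCL8 therefore overlap their entries, and that of CXCL6 lies wholly inside its entry. The capitals mark GGAATTTCC, a form of the binding sequence of NF-kappa B, and in CXCL8 also TGACTCA, the binding sequence of AP-1.
CXCL1 (chr4:73869243-73869392, plus strand): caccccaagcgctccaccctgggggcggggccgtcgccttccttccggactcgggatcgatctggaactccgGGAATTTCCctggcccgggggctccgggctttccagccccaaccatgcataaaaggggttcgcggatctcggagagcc
CXCL2 (chr4:74099196-74099345, minus strand): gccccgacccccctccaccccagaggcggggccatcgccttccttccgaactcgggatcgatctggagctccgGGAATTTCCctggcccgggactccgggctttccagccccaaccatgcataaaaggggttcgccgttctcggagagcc
CXCL3 (chr4:74038690-74038839, minus strand): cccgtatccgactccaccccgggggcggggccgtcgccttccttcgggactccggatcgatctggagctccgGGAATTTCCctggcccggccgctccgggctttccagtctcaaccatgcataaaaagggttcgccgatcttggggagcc
CXCL5 (chr4:73998678-73998827, minus strand): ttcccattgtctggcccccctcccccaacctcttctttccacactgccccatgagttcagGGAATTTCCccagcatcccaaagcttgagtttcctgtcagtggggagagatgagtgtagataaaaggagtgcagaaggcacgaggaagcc
CXCL6 (chr4:73836528-73836677, plus strand): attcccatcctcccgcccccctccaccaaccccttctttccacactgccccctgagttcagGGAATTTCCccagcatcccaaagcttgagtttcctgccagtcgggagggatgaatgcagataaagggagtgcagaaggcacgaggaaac
CXCL8 (chr4:73740419-73740568, plus strand): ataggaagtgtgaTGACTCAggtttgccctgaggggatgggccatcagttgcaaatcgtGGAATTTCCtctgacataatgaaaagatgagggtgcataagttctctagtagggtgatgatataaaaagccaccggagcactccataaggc
GGAATTTCC stood once in each of the 6 promoters on the sense strand, starting 77 to 91 bases upstream of the start. It stood on either strand in 0.461% of the 35116 RefSeq promoter windows of 300 bases (250 before and 50 after the start). The same letters with a further G before them, a form that overlaps it, stood in 5 of the 6 promoters, all but that of CXCL8, and in 0.145% of all windows. A second related sequence, GGGNTTTCC, was found 53 bases upstream in CXCL1, CXCL2 and CXCL3 only, against 1.86% of all windows. TGACTCA stood 137 bases upstream in CXCL8 and in no other member, against 4.95% of all windows. TTGCNNAA, a form of the C/EBP sequence, was found only in CXCL2 on the antisense strand (10.5% of all windows), and TATAAA only in CXCL8, 31 bases upstream (11.5%). The promoters are not independent of each other. Over 69 bases centred on GGAATTTCC, CXCL5 and CXCL6 were 95.7% identical and CXCL1, CXCL2 and CXCL3 were 75.4% to 89.9% identical, while pairs across these subfamilies, CXCL8 included, were 27.5% to 47.8% identical. Of 13 other genes of the cluster, its neighbours and the CXC family with a window, CXCL10 and CXCL11 held GGAATTTCC. A match is a description of these letters and does not show that a factor was bound. Only exact matches to the letters given were counted (N is any base). A member without a match, CXCL8 for TTGCNNAA among them, can therefore hold another form of the site.

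The 3′ untranslated regions of the members held 6 to 11 copies of ATTTA, the pentamer of AU-rich elements, against a median of 2 over 20046 canonical coding transcripts. The counts were 6 in CXCL1, 10 in CXCL2, 7 in CXCL3, 11 in CXCL5, 6 in CXCL6 and 9 in CXCL8. Counts at least as high were found in 10.6% of all these transcripts for CXCL5 and in 23.7% for CXCL1 and CXCL6. Per kilobase, CXCL2 was densest at 14.0, a density reached by 0.384% of the 18492 transcripts with a region of at least 100 bases, and CXCL6 least dense at 5.4, reached by 7.98%.

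The level of U11 went against the knockout label. Summed over both RNU11 entries, it stood at 21.4 and 23.8 TPM for the controls of the knockout set, while the libraries labelled U11 knockout had 31.6 and 37.4 TPM. In the overexpression set it stood at 0.0334 and 0.623 TPM in the controls, at 0.183 and 0.412 with line label 79, at 3.98 and 3.72 with line label 86 and at 61.9 and 53.6 with line label 87. Line label 79 therefore lay within the range of the controls, which were themselves under 1 TPM. The controls of the 2 sets, all labelled untreated, differed in U11, as the sets did in the histone sum given below. How far U11 was captured in the overexpression set was not tested, so these values may not give its level in the cells. The two-sided exact permutation test of the means gave P = 0.333 with 2 libraries against 2, the smallest it can give, and P = 0.286 with 6 against 2. Every direction below rests on the labels.

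Keratins marked the cells as epithelial, with KRT7, KRT8, KRT18 and KRT19 summing to 1820 to 2180 TPM in the knockout set and 5480 to 8930 TPM in the overexpression set. Of 7 urothelial markers, GATA3 and PPARG were above 1 TPM, while the 4 uroplakins and TP63 were under 1 TPM in every library. Of 8 leukocyte markers, LYZ stood at 1.55 to 1.68 TPM in the 4 libraries of the second overexpression batch and at 0 in the 4 of the first, and the whole list summed to 3.17 to 3.86 and 0.274 to 1.22 TPM. Values within each batch are therefore given beside the pooled ones. Of 4 endothelial markers, PECAM1, VWF and KDR were at most 0.297 TPM, while CDH5, the gene of VE-cadherin, moved with groups. It stood at 4.85 and 4.75 TPM in the knockout controls, 0.0316 and 0.0293 in the libraries labelled knockout, 3.43 and 3.08 in the overexpression controls and 34.1 and 32.2 with line label 79, and its part in the results below was not tested. The 2 sets also differed in kind. A sum over 89 histone genes was 27700 to 34300 TPM in the knockout set and 103 to 180 TPM in the overexpression set, so levels are compared only within a set. In bulk RNA, fewer expressing cells and less RNA per cell cannot be told apart.

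CXCL1 and CXCL8 carried most of the RNA of the family. In every library CXCL1 was the highest and CXCL8 the second of the 6 genes on the TPM scale, and both together made 85.6% to 93.3% of the summed level. The mean coverage of a gene over the 12 libraries, in reads per base, ran from 283 to 1860 for CXCL8, from 14.7 to 89.8 for CXCL2 and from 0.878 to 28.2 for CXCL5, so that the low members are measured least precisely. The sum of the 6 genes was 612 and 697 TPM in the knockout controls and 176 and 185 TPM in the libraries labelled knockout. In the overexpression set it was 444 and 428 TPM in the controls and 784 to 997 TPM in the 6 overexpression libraries. CXCL5 was the lowest of the 6 in every library. CXCL6 came next after CXCL8 in all but the libraries labelled knockout, where it was below CXCL2. Receptor RNA was close to none, with CXCR1 at no more than 0.0845 TPM and CXCR2 at no more than 0.0409 TPM in any library. PPBP, the platelet chemokine of the same class and cluster, was listed at 0 in 11 libraries and at 0.095 TPM in 1.

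**Figure D1:**
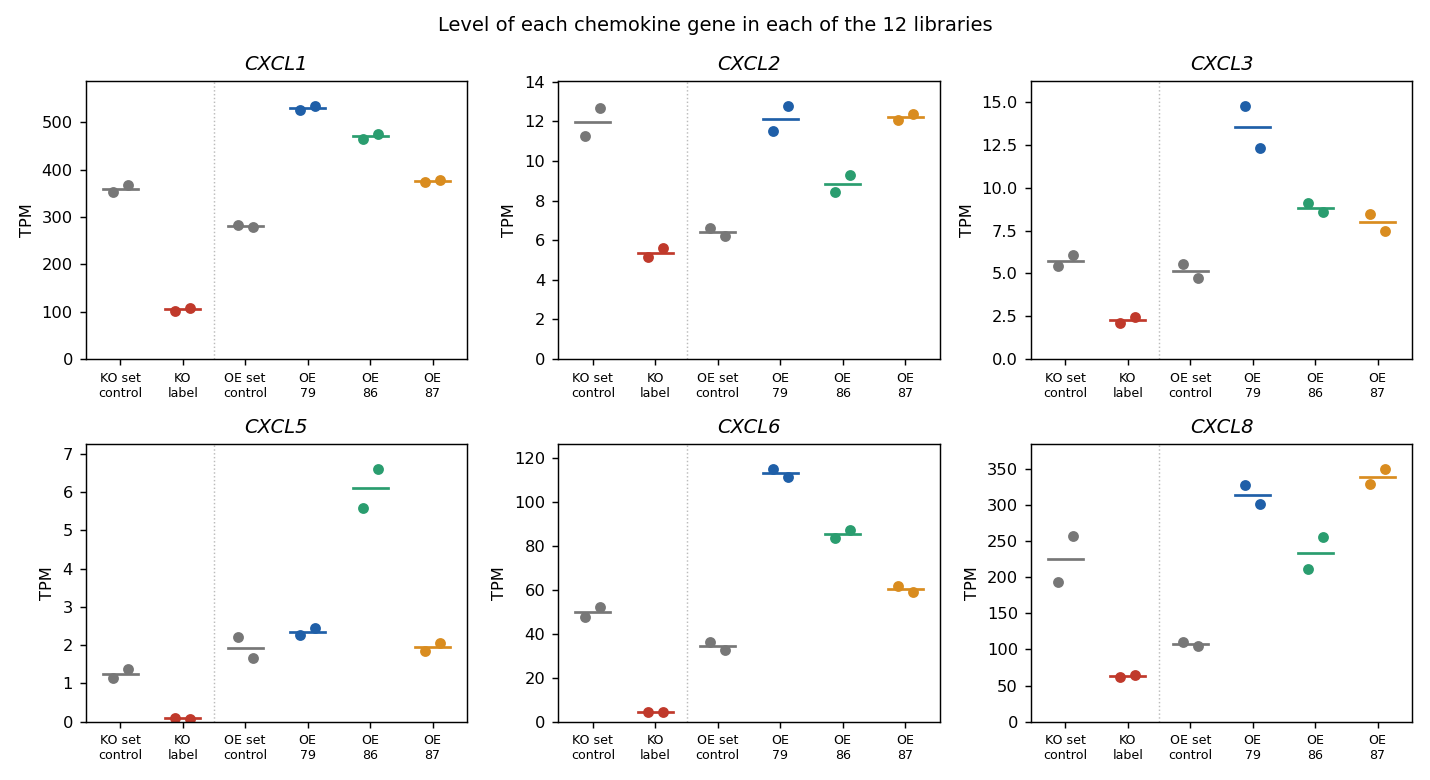
TPM of each of the 6 chemokine genes (1 panel each, vertical axes from 0 and of different height) in the 12 libraries, by group, with each point 1 library and each bar the mean of 2. The 2 libraries labelled knockout (KO) lie below both of their controls in all 6 panels, and the overexpression (OE) libraries lie above both of their controls for CXCL1, CXCL2, CXCL3, CXCL6 and CXCL8.

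All 6 chemokine genes were down-regulated with the U11 knockout label. A gene was called where limma on log2(TPM + 1) gave an unadjusted P below 0.05 and a change of 1.5-fold or more, and genes entered the fit if 2 or more of the libraries compared reached 1 TPM. Of the 14356 genes tested, 3.15% were called lower and 8.61% higher. The 6 members were also past a Benjamini-Hochberg adjusted P of 0.05 in limma, which 2.08% of genes passed in that direction with the same fold. The adjusted calls rested on both libraries labelled knockout. Without the first or without the second of them, none of the 6 members passed the adjusted P in limma (0.133 to 0.174 and 0.114 to 0.149), while all 6 remained past the unadjusted threshold, and 2 and 0 of all genes were called after adjustment. With the replicate number as a block, 3 members passed after adjustment, and with no filter on low values 2. CXCL5 reached the filter only through its controls, so the count that can be read against this background is 5 of the other 5. The groups of no member overlapped, and neither did those of 20.4% of all genes tested that were lower in the libraries labelled knockout. The study drew attention to CXCL genes from these same libraries, so the count is no independent evidence of the direction. The median log2 fold change was -1.41 over the members and 0.108 over all genes. With median ratio scaling, which moved the median of all genes to -0.018, calls changed from 1236 higher and 452 lower to 773 higher and 775 lower, and all 6 members were still lower.

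CXCL6, which can also act on bacteria, had the largest fall on the log2(TPM + 1) scale. Its controls had 47.6 and 52.2 TPM, against 4.36 and 4.22 TPM with the knockout label. Its log2 fold change was -3.27 ± 0.11 (SE, adjusted P = 0.00276 in limma, n = 2 against 2), a 9.62-fold fall and the 7th lowest of all genes tested. CXCL8 fell from 193 and 258 TPM to 62.3 and 64.9 TPM, with a log2 fold change of -1.79 ± 0.16 and an adjusted P of 0.0127 in limma. CXCL1 fell from 353 and 367 TPM to 102 and 108 TPM, with a log2 fold change of -1.77 ± 0.08 and an adjusted P of 0.0047 in limma. These 2 most abundant genes thus fell by similar amounts, and the ratio of CXCL8 to CXCL1 was 0.545 and 0.702 in the controls and 0.612 and 0.601 in the libraries labelled knockout. The ratio of CXCL6 to CXCL1, in contrast, was 0.135 and 0.142 in the controls and 0.0428 and 0.0391 in the libraries labelled knockout.

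The remaining GRO chemokines fell about as far as each other. CXCL2 went from 11.3 and 12.7 TPM to 5.14 and 5.61 TPM, a log2 fold change of -1.02 ± 0.13. CXCL3 went from 5.45 and 6.06 TPM to 2.09 and 2.46 TPM, a log2 fold change of -1.04 ± 0.13. Their adjusted P values in limma were 0.0225 and 0.0243. CXCL5 was near the limit of the data, with 1.14 and 1.38 TPM in its controls against 0.107 and 0.0821 TPM with the knockout label, where its mean coverage was 1.08 and 0.878 reads per base. Its log2 fold change of -1.04 ± 0.13 (adjusted P = 0.0225 in limma) is held down by the 1 TPM added before the logarithm, and with 0.1 TPM added it was -2.80. As a ratio of mean TPM, CXCL5 was 13.4-fold lower and CXCL6 11.6-fold lower.

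In the overexpression set, 5 of the 6 members were up-regulated at the unadjusted threshold, against 0.767% of the 15768 genes tested called higher. Only CXCL8 also passed an adjusted P of 0.05 in limma, as did 0.0507% of genes in that direction. The 6 libraries are 2 each of 3 line labels and are not independent of each other, and with 1 mean per line label the adjusted P of CXCL8 in limma was 0.173. It was 0.271 without the first control, 0.341 without the second, 0.0521 and 0.0578 without either library of line label 79, 0.0569 without the first of line label 87 and 0.0627 with a replicate block. The same 5 members, CXCL1, CXCL2, CXCL3, CXCL6 and CXCL8, had no overlap between the 6 overexpression libraries and the 2 controls, against 4.62% of all genes higher without overlap. The median log2 fold change was 0.76 over the members and -0.017 over all genes. Of 13792 genes tested in both sets, 12 (0.087%) were called lower with the knockout label and higher with the overexpression label, and 5 of the 12 were these members. The study chose its CXCL genes from that same intersection.

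CXCL8 rose the most over the 6 libraries pooled, though not with line labels 79 and 86 taken alone. Its controls had 111 and 104 TPM, against 327 and 301 TPM with line label 79, 212 and 256 TPM with line label 86 and 329 and 349.8 TPM with line label 87. Every overexpression library was thus above both controls, with a log2 fold change of 1.43 ± 0.18 (SE, adjusted P = 0.0202 in limma, n = 6 libraries of 3 line labels against 2). Against the control of its own batch, CXCL8 was higher in 3 of 3 libraries in both batches, by a mean of 1.35 and 1.51 on the log2 scale. CXCL6 had 36.4 and 32.6 TPM in its controls and rose by 1.26 ± 0.26 on the log2 scale (adjusted P = 0.237 in limma). Its lowest, median and highest overexpression libraries were at 59.0, 85.4 and 115 TPM. CXCL1 rose by 0.70 ± 0.15, CXCL2 by 0.69 ± 0.16 and CXCL3 by 0.83 ± 0.23 on the log2 scale, with adjusted P values in limma of 0.255, 0.356 and 0.475. Within batches, CXCL1 was higher by 0.67 and 0.72, CXCL2 by 0.60 and 0.77 and CXCL3 by 0.81 and 0.85, in 3 of 3 libraries each time. Fitted on the first batch alone, however, CXCL2 and CXCL3 missed the P threshold with log2 differences of 0.60 and 0.81, and 3 members were called. CXCL3 also missed it without the second control, at 0.73.

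CXCL5, a neutrophil chemokine of epithelial cells, was not called over the 6 libraries, with a log2 difference of 0.50 ± 0.40 and a 95% interval from -0.40 to 1.40. Its lowest overexpression library, at 1.86 TPM, lay between the controls at 2.21 and 1.66 TPM, and its highest was at 6.61 TPM. This spread followed the line labels, which are described next.

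**Figure D2:**
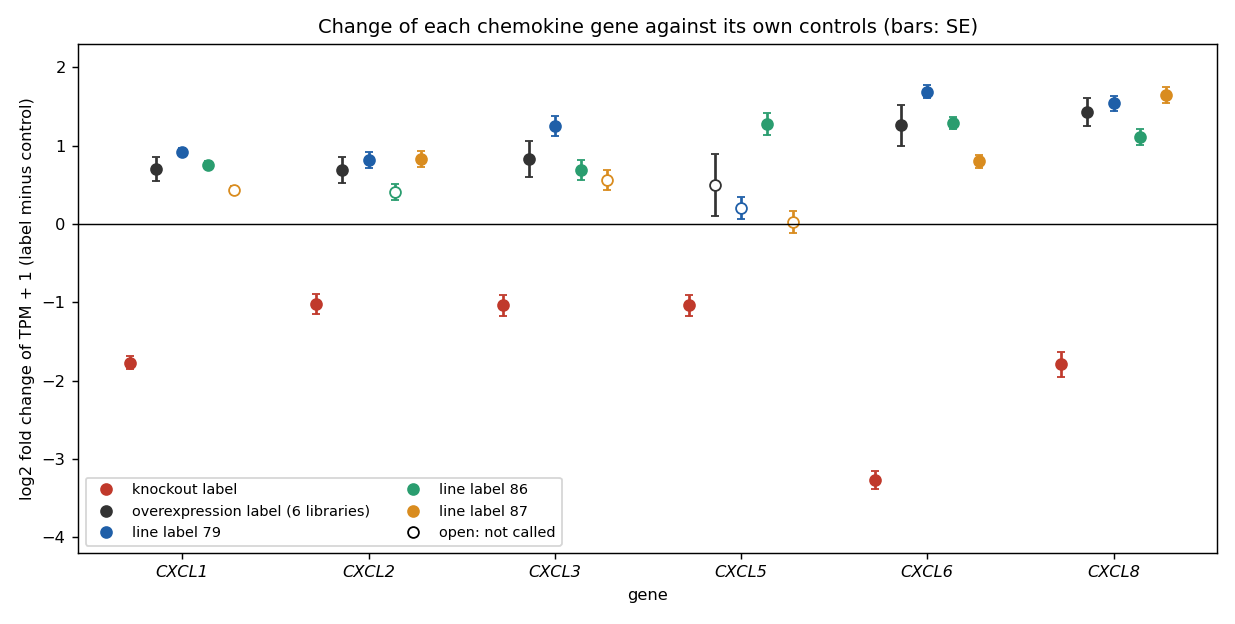
Log2 fold change of TPM + 1 against the controls of the same set for the 6 genes on the horizontal axis, with bars for the SE and open points for changes that were not called. The changes are those of the knockout label, of all 6 overexpression libraries and of each line label. All 6 red points (knockout label) lie between -3.27 and -1.02, and the points of the line labels lie between 0.02 and 1.69.

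Taken by line label, the members rose to different extents, and the 3 comparisons share their 2 control libraries. With line label 79, 5 members were called higher (2.43% of all genes tested), with log2 fold changes of 0.92 for CXCL1, 0.82 for CXCL2, 1.25 for CXCL3, 1.69 for CXCL6 and 1.54 for CXCL8 and with adjusted P values in limma no larger than 0.00516 (a call that 1.64% of genes passed after adjustment). With line label 86, 5 members were called higher (1.59% of genes), namely CXCL1 by 0.75, CXCL3 by 0.69, CXCL5 by 1.28, CXCL6 by 1.29 and CXCL8 by 1.11 on the log2 scale. With line label 87, 3 members were called higher (2.08% of genes), namely CXCL2 by 0.83, CXCL6 by 0.80 and CXCL8 by 1.65. With line labels 86 and 87, the adjusted P in limma was under 0.05 for all of these except CXCL3 with line label 86 (0.0599), against 0.59% and 1.1% of genes called higher after adjustment. CXCL1 with line label 87 also passed the adjusted P in limma (0.0107), with a log2 difference of 0.43, short of the fold threshold.

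Differences between line labels were tested directly, in 18 comparisons of 6 genes in 3 pairs, each adjusted over all genes, and 12 of the 18 were past an adjusted P of 0.05 in limma at any fold, which 13.5% of all genes passed between 79 and 86, 10.5% between 79 and 87 and 6.41% between 86 and 87. CXCL1, CXCL3 and CXCL6 were highest with line label 79, the first of 3 orders seen. CXCL6 stood at 115 and 112 TPM with line label 79, 83.5 and 87.3 with line label 86 and 62.0 and 59.0 with line label 87, and each step was past an adjusted P of 0.05 in limma (0.0201 for 79 against 86 and 0.0174 for 86 against 87). CXCL1 had the same order at 526 and 534, 465.5 and 477, and 374 and 379 TPM, all above its controls at 283 and 278 TPM. Its difference between 79 and 87 was 0.49 on the log2 scale (adjusted P = 0.0028 in limma), while 79 and 86 differed by 0.17 (adjusted P = 0.083 in limma). CXCL3 stood at 14.8 and 12.3 TPM with line label 79, 9.09 and 8.57 with 86 and 8.50 and 7.49 with 87, against controls at 5.53 and 4.70 TPM. It was higher with 79 than with 87 by 0.69 (adjusted P = 0.0205 in limma), and 86 and 87 did not differ beyond their spread, with an interval from -0.18 to 0.44.

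CXCL2 and CXCL8 were lowest with line label 86 instead. CXCL2 stood at 11.5 and 12.8 TPM with line label 79, 8.42 and 9.27 with 86 and 12.1 and 12.4 with 87, against controls at 6.62 and 6.23. Its log2 difference was 0.41 for 79 minus 86 (adjusted P = 0.0379 in limma). For 86 minus 87 it was -0.43 (adjusted P = 0.0553 in limma), which missed the adjusted threshold. CXCL8 with line label 86 was below line label 87 by 0.54 on the log2 scale (adjusted P = 0.0315 in limma) and below line label 79 by 0.43 (adjusted P = 0.0413 in limma). Between 79 and 87, neither gene differed beyond its spread, with intervals of the log2 difference from -0.25 to 0.22 for CXCL2 and from -0.36 to 0.14 for CXCL8. The ratio of CXCL8 to CXCL1 thereby ran from 0.375 and 0.392 in the controls to 0.877 and 0.922 with line label 87, with 0.563 and 0.621 with line label 79 and 0.454 and 0.536 with line label 86.

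CXCL5 had yet another order, being high with line label 86 alone. It stood at 5.60 and 6.61 TPM there, at 2.26 and 2.45 TPM with line label 79 and at 1.86 and 2.06 TPM with line label 87. The log2 difference was 1.08 between 86 and 79 and 1.26 between 86 and 87 (adjusted P = 0.00637 and 0.00672 in limma), while 79 and 87 differed by 0.18 with an interval from -0.17 to 0.53. Past the fold threshold as well as P were CXCL5 between 79 and 86 (9.8% of all genes called), CXCL3 and CXCL6 between 79 and 87 (8.7% of genes), and CXCL5 between 86 and 87 (6.46% of genes). Those shares are of genes called in either direction. The differences between line labels had the same sign in both batches for all 18 comparisons except CXCL2 between 79 and 87. U11 as read in this set, where its capture was not tested, was at the level of the controls with line label 79 and highest with line label 87. The means of CXCL1, CXCL3 and CXCL6 ran in the opposite order, though not every step of CXCL1 and CXCL3 passed the adjusted P. CXCL2 and CXCL8 had their highest means with line label 87 (12.2 and 339 TPM), close to those with 79 (12.1 and 314 TPM). CXCL5 was highest with line label 86. A link between U11 and these orders was not tested.

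**Figure D3:**
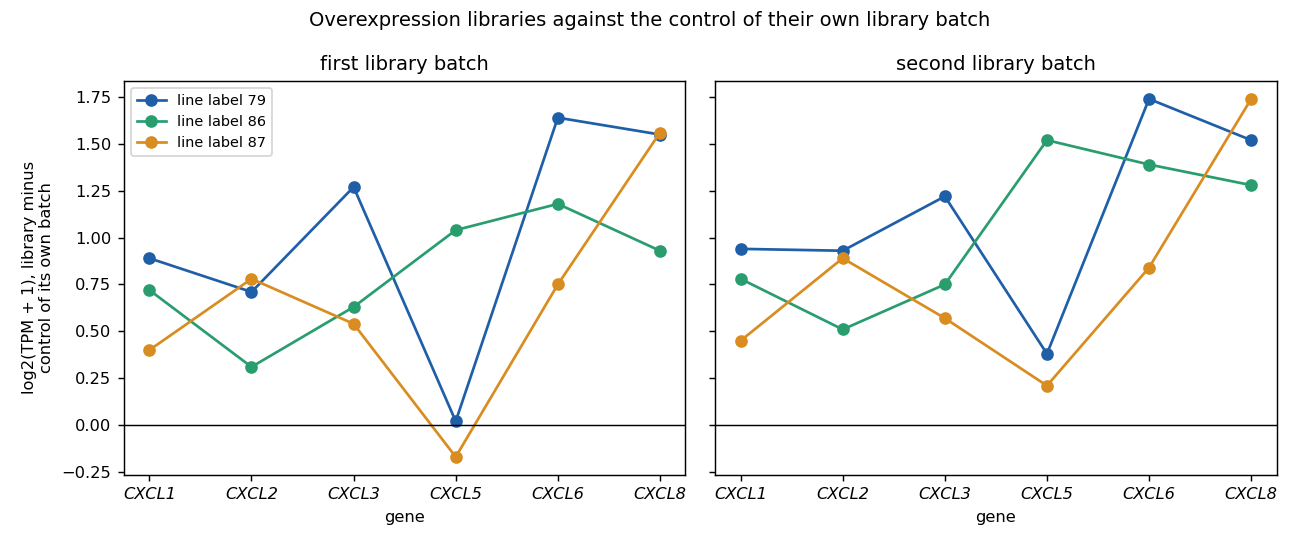
Log2(TPM + 1) of each overexpression library minus the control of its own library batch, for the 6 genes, with the first batch on the left, the second on the right and 1 line per line label. In both batches CXCL5 stands out with line label 86 (1.04 and 1.52), CXCL6 is higher with line label 79 than with the other line labels (1.64 and 1.74), and 1 value is below 0 (CXCL5 with line label 87, -0.17).

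The 6 genes span 359 kb of chromosome 4 in the deposited tables (hg38, chr4:73740506-74099293), with CXCL8, CXCL6 and CXCL1 on the plus strand and CXCL5, CXCL3 and CXCL2 on the minus strand. Between CXCL8 and CXCL2 lay 10 other entries, among them PPBP, PF4 and PF4V1, and 1 of the 10, a gene without a name, reached 1 TPM in a library. Within 1 Mb of the span, 7 other genes were tested in each set. None of the 7 was called in limma with the knockout label, against 3.15% of all genes called lower and 8.61% higher. Of them 1, EREG, had an unadjusted P under 0.05 there. With the overexpression label 1 was called lower, as were 1.16% of all genes. At such shares, 0 or 1 of 7 genes called with these pooled labels does not set the neighbours apart from other genes. By line label, EREG, AREG and BTC were called lower with 79, where 871 of all 15768 genes were called lower. BTC was also called lower with 87, where 481 of all genes were. In the libraries of both line labels BTC was under 1 TPM. MTHFD2L, a mitochondrial folate enzyme and the nearest of them to CXCL2, changed by 0.13 ± 0.12 on the log2 scale with the knockout label and by -0.01 ± 0.14 with the overexpression label. EREG and AREG, which encode ligands of the EGF receptor, changed by -0.45 ± 0.13 and -0.27 ± 0.15 with the knockout label, neither past the fold threshold. BTC, another ligand of that receptor, was the 1 called with the overexpression label, with a log2 fold change of -0.67 ± 0.18 (adjusted P = 0.47 in limma), and reached the filter mainly through its controls, with 1 overexpression library at 1 TPM or more. COX18, ANKRD17 and HMGA1P2, on the other side of CXCL8, had values from -0.06 to 0.29 with the knockout label and from 0.08 to 0.20 with the overexpression label.

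**Figure D4:**
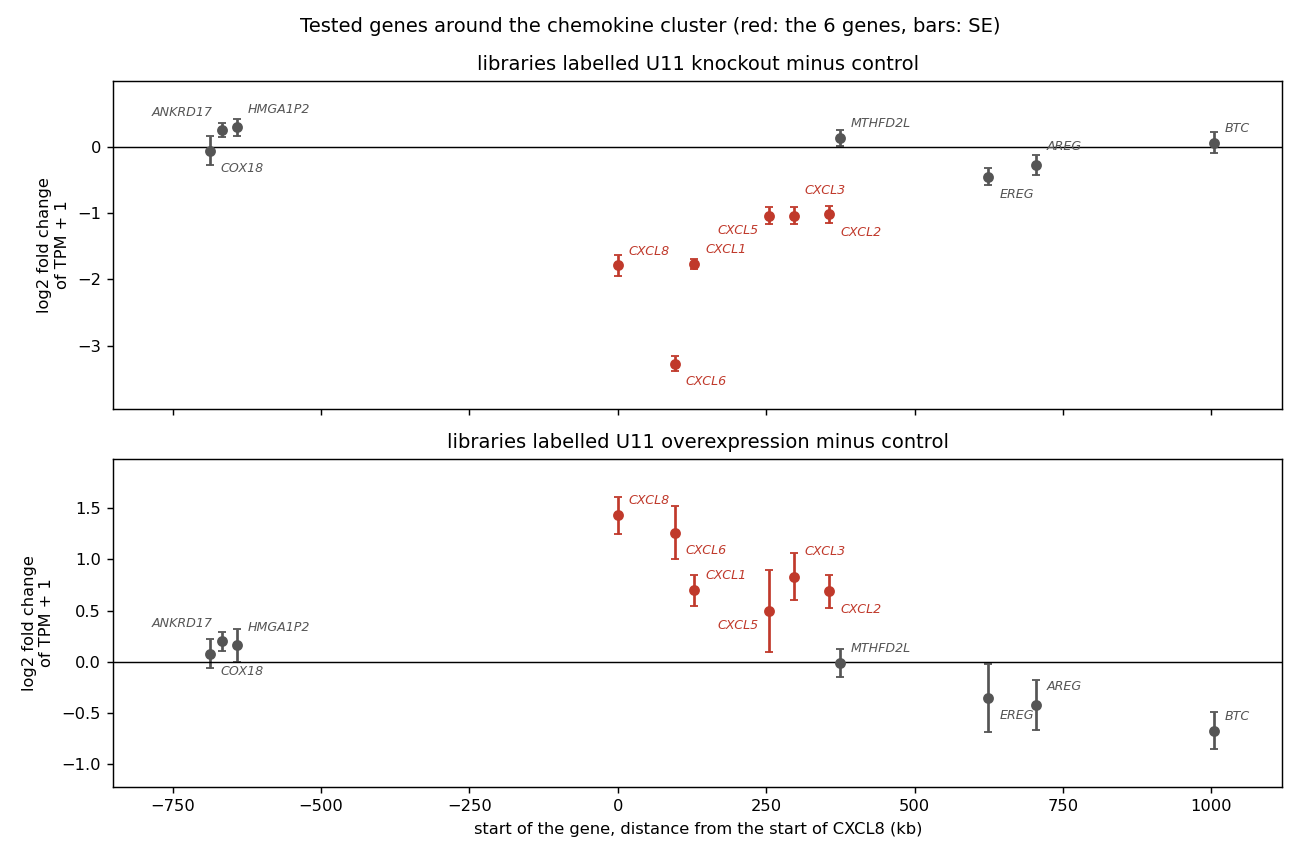
Log2 fold change of TPM + 1 with its SE for the tested genes within 1 Mb of the cluster, against the distance of the gene's start from that of CXCL8 in kb, for the knockout label (top) and the overexpression label (bottom). The 6 chemokine genes (red) lie at -1.02 or lower in the top panel, where the 7 other genes lie between -0.45 and 0.29.

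Among the other CXC ligands, 1 of 11 was expressed enough to be tested. CXCL16, which carries no ELR motif and is made as a membrane protein, was not called in either set, with 2.50 and 2.37 TPM in the knockout controls, 3.61 and 3.79 TPM in the libraries labelled knockout, and a log2 difference of 0.45 ± 0.12.

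Of the 20 inducers and their receptors listed (interleukin 1, TNF and interleukin 17 pathways), 13 were tested in the knockout set. There 2 were called lower and 3 higher, against 3.15% and 8.61% of all genes. TNF was not tested, as it did not reach 1 TPM in 2 libraries. It had 1.04 and 0.899 TPM in the controls and 0.0617 and 0.0810 TPM with the knockout label. The 2 called lower were the cytokines of the interleukin 1 family, which induce these chemokines in epithelial cells. IL1A fell from 15.2 and 18.4 TPM to 4.91 and 4.28 TPM (log2 fold change -1.67 ± 0.15, adjusted P = 0.0131 in limma). IL1B fell from 65.2 and 70.3 TPM to 43.3 and 41.8 TPM (log2 fold change -0.66 ± 0.09, adjusted P = 0.0285 in limma). Those higher were their receptor IL1R1 (0.83), the TNF receptor TNFRSF1A (0.59) and the interleukin 17 adaptor TRAF3IP2 (0.62), the last 2 with adjusted P values in limma of 0.0893 and 0.0526. None of 14 tested was called in limma over the 6 overexpression libraries, with 0 at an unadjusted P under 0.05. Both rose with line labels 86 and 87, with IL1B at 144 and 154 TPM and at 122 and 125 TPM against controls at 62.4 and 62.7 TPM. Both fell with line label 79, with IL1B at 25.3 and 27.9 TPM and a log2 fold change of -1.20 ± 0.07, and IL1A at 3.11 and 3.46 TPM against 7.64 and 9.74 TPM. Line label 79 was thus the one with the highest CXCL1, CXCL3 and CXCL6 and the lowest IL1A and IL1B. There IL1R1 rose from 0.290 and 0.408 TPM to 2.63 and 2.79 TPM (log2 fold change 1.46 ± 0.17). IL1R1 reached the filter only through the libraries where it was high, here and in the knockout set, so its calls are a description.

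The 20 transcription factors and regulators of the NF-kappa B, AP-1 and C/EBP families listed were all tested in both sets. With the knockout label 1 was called lower and 3 higher, against 3.15% and 8.61% of all genes. None was called in limma over the 6 overexpression libraries, where 0 had an unadjusted P under 0.05. By line label, BCL3 was called higher (0.72, adjusted P = 0.0799 in limma) and NFKB2 lower (-0.68) with 79, and TNFAIP3 lower (-0.60) with 86. RELB (1.05), TNFAIP3 (0.63) and NFKBIA were called higher with 87. Of all 15768 genes, 383 were called higher and 871 lower with 79, 251 and 317 with 86, and 328 and 481 with 87. RELA and NFKB1, the subunits of the main NF-kappa B dimer, changed by -0.17 ± 0.12 and -0.10 ± 0.11 with the knockout label and by 0.10 ± 0.31 and 0.07 ± 0.11 with the overexpression label. NFKBIA, the inhibitor of NF-kappa B that is itself one of its targets, fell from 63.4 and 63.0 TPM to 33.7 and 34.8 TPM with the knockout label (log2 fold change -0.87 ± 0.09, adjusted P = 0.0171 in limma). It was at 62.5 and 62.3 TPM with line label 87 against 38.3 and 41.7 TPM in the controls (0.63 ± 0.09, adjusted P = 0.0184 in limma). NFKBIZ, a nuclear cofactor, was at 0.60 ± 0.23 with the knockout label (adjusted P = 0.169 in limma), not called. CEBPB, JUNB and FOS were the members of the list that were higher with the knockout label, by 0.59, 1.27 and 0.69 on the log2 scale. FOS reached the filter only through the libraries labelled knockout and had an adjusted P of 0.0975 in limma. Of 9 mRNA decay factors, ZFP36L2 was called higher (0.80) and ZC3H12A lower (-0.76) with the knockout label, against 8.61% and 3.15% of all genes. None was called in limma over the 6 overexpression libraries, where 1 had an unadjusted P under 0.05. By line label only ELAVL1 was called, lower with 86 (-1.15, adjusted P = 0.139 in limma). ELAVL1 stood at 24.4 and 24.7 TPM with 86 and at 54.1 and 57.6 TPM in the controls. The 2 libraries of line label 87 differed from each other, at 25.7 and 52.5 TPM, so its low level was not particular to 86. ZFP36, which binds AU-rich elements, was at 0.49 ± 0.12 with the knockout label, under the fold threshold.

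Of 15 other NF-kappa B targets listed, 11 were tested in the knockout set. Among these 5 were called lower and 1 higher, with a median log2 fold change of -0.31 against 0.108 over all genes. The adhesion gene ICAM1 fell by 1.28 and the cytokine CSF2 by 1.45 on the log2 scale (adjusted P = 0.018 and 0.0231 in limma), and CSF3, BIRC3 and BCL2A1 fell by 1.08, 0.69 and 0.63 with adjusted P values in limma from 0.107 to 0.16. CSF2 and BCL2A1 reached the filter only through their controls, so that 3 of the other 9 were called lower, against 3.15% of all genes. PTGS2, the gene of cyclooxygenase 2, rose by 0.73. In the overexpression set, 10 were tested, of which 2 were called higher and 1 lower, against 0.767% and 1.16% of all genes. BCL2A1, an anti-apoptotic member of the BCL2 family, had 2.02 and 2.19 TPM in its controls and rose in every overexpression library to 7.01 TPM or more (log2 fold change 1.85 ± 0.25, adjusted P = 0.0283 in limma). PTGS2 rose by 1.13 ± 0.33 and CCL5 fell by 1.07 (adjusted P = 0.534 and 0.475 in limma). The median over the 10 was -0.08, against -0.017 over all genes. By line label, LIF was called lower with 79 (-0.89) and 87 (-0.72) and higher with 86 (0.63). CSF3 was called higher with 79 (0.80) and 86 (2.27), and BIRC3 (-1.31) and TNFAIP2 (-0.74) lower with 79. BCL2A1 was called higher with every line label, PTGS2 higher with 79 and 87, and CCL5 lower with 86 and 87. GGAATTTCC was found in the promoter of 1 of the 10 targets with a RefSeq window, ICAM1.

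**Figure D5:**
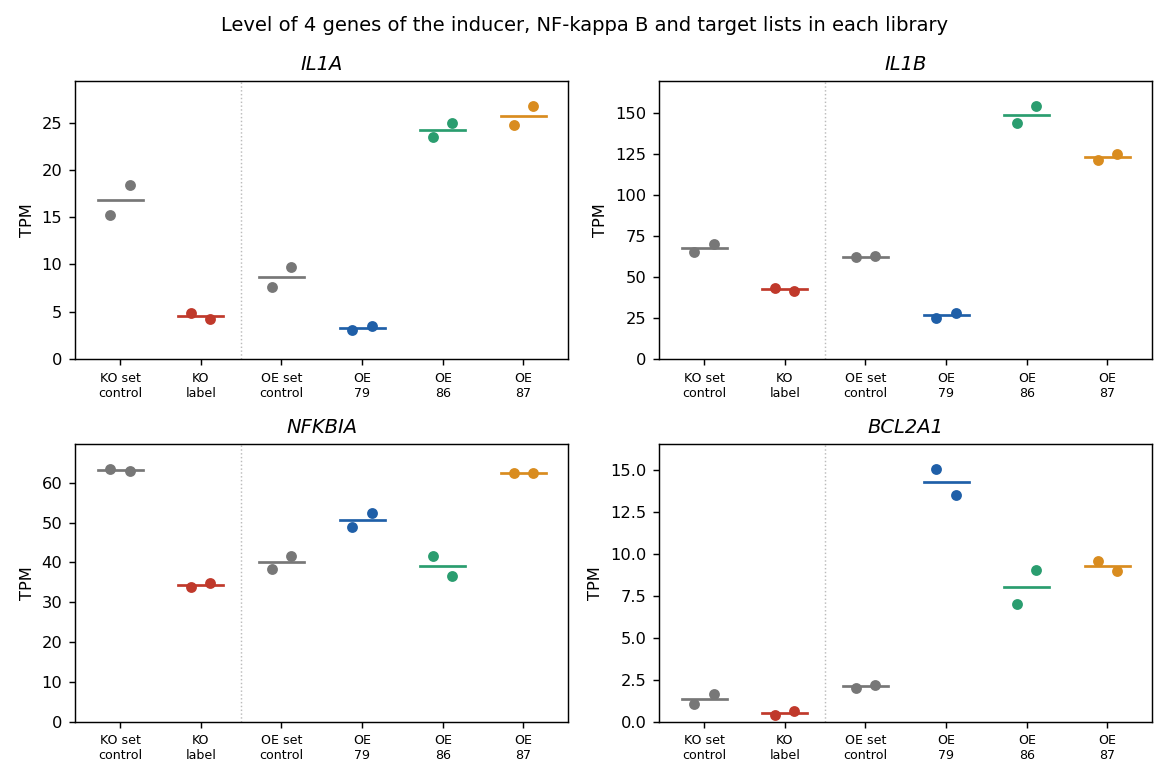
TPM of IL1A, IL1B, NFKBIA and BCL2A1 (1 panel each, vertical axes from 0) in the 12 libraries by group, with points for libraries and bars for means. IL1A and IL1B lie below their controls in the libraries labelled knockout and with line label 79, where IL1B is at 25.3 and 27.9 TPM, and above their controls with line labels 86 and 87.

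The genes whose pattern was most like that of CXCL8 were sought among 523 genes, the members left out, that varied across the libraries, after centring each library on the mean of its library batch. Among these, the 5 highest Pearson correlations over the 12 libraries, given as a description, were those of BCL2A1 (0.84), INHBB (0.83), FUT8-AS1 (0.80), KHDRBS3 (0.80) and C15orf38-AP3S2 (0.80). Within the 6 overexpression libraries alone, CXCL8 correlated with CXCL2 at 0.92, CXCL1 with CXCL6 at 0.99 and CXCL5 with CXCL2 at -0.92, with the points in pairs by line label. The 12 points share their batches and controls, and the gap between knockout label and control weighs on all of them. Measured in the same way, the other members correlated with CXCL8 at 0.98 for CXCL2, 0.88 for CXCL3 and CXCL6, 0.87 for CXCL1 and 0.47 for CXCL5.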

How the data were processed

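The 12 T24 libraries were grouped by the treatment label, the title suffix (line label) and the title prefix (library batch). The members, gene lists and tests were chosen with earlier results of these data known. By the study's methods, the authors aligned reads with Hisat2 and ran Stringtie, and the labels name hg38. For each gene the authors deposited a coverage (mean read depth per base), an FPKM (fragments scaled by gene length and library size) and a TPM (a level scaled by length and to an equal total in every library). The files used hold no read counts, so count tests were not run, and precision came from the spread between libraries. The labels name polyA RNA, while the study's methods name removal of ribosomal RNA.

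Comparisons used log2(TPM + 1) in limma 3.58.1 (R 4.3.3), with lmFit and the trend option of eBayes, and only genes that reached 1 TPM in 2 or more libraries compared, each set with its own controls and the line labels in 1 fit of 4 groups. Calls needed an unadjusted P below 0.05 and 1.5-fold or more, with the Benjamini-Hochberg adjusted P over all genes beside it. The U11 level was compared with an exact permutation test. The text names the 6 members, both receptors, PPBP, RELA, NFKB1, NFKBIA, NFKBIZ, IL1A, IL1B, CEBPB and ZFP36, called genes of 5 lists, tested genes within 1 Mb, and the 5 genes most like CXCL8 with at least 5 TPM in a group and an SD of at least 0.5. On simulated data the fit was tested with known changes. Alternatives were a pseudocount of 0.1, FPKM, other scalings and filters, no trend, other controls, blocks, 1 fit of all 12 libraries, line label means and each library left out. The fits of single library batches were added after seeing the data. Python 3.11.15 was used for the rest. Genes were followed by identifier, and GENCODE release 44 and RefSeq (GRCh38.p14) gave transcripts and promoters of the same assembly.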

Additional observations from a re-analysis of the deposited data

Results flagged for a closer look

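The change against the same controls differed between line labels in 12 of the 18 comparisons of members at an adjusted P under 0.05 in limma, which 13.5% of all genes reached between 79 and 86, 10.5% between 79 and 87 and 6.41% between 86 and 87. Line label 79 minus line label 86 gave log2 differences of 0.41 for CXCL2, 0.56 for CXCL3, -1.08 for CXCL5, 0.40 for CXCL6 and 0.43 for CXCL8. Line label 79 minus line label 87 gave 0.49 for CXCL1, 0.69 for CXCL3 and 0.89 for CXCL6. Line label 86 minus line label 87 gave 0.32 for CXCL1, 1.26 for CXCL5, 0.49 for CXCL6 and -0.54 for CXCL8. What else sets the line labels apart was not tested. In no member, nor in U11, did 1 of the 6 overexpression libraries stand far from the other 5.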

How the results depend on the processing

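The fall of CXCL1, CXCL3, CXCL6 and CXCL8 with the knockout label and the rise of CXCL8 with the overexpression label stayed past the unadjusted threshold under every alternative run, as did CXCL5 with the knockout label in the 12 where it was tested, and no call changed direction. The members lower with the knockout label numbered 5 or 6 without each library in turn, the 5 arising where CXCL5 was left untested without a control, and those higher with the overexpression label 4 or 5. In the overexpression set 3 members were called without the second library batch and 1 at an adjusted P. With all 4 controls, CXCL2 was no longer called with the knockout label (log2 fold change -0.62) nor with the overexpression label (0.28), and CXCL1 in the latter missed the fold threshold (0.52). Line labels 79 and 86 differed in 2 members (CXCL3 joining CXCL5) with a pseudocount of 0.1, median ratio scaling or quantile normalization, and in 1 to 2 without a library (2 without the first library of 86 or the second of 79). Line labels 79 and 87 differed in 1 to 2 (1 without the first library of 79), and 86 and 87 in 1 to 2 (2, with CXCL8, without the first library of 87 or the second of 86). The genes called with the knockout label, 1688, became 976 with all 4 controls and 984 at an adjusted P, and ranged from 1385 to 2511 without a library. Those called with the overexpression label, 304, became 173 with FPKM, 175 with 1 TPM in every library, 3233 with all 4 controls (which mixes both sets) and 26 at an adjusted P, and ranged from 264 to 380 without a library. Deviations of same-numbered libraries correlated at 0.02 in the knockout set and, by library batch, at 0.07 to 0.15 in the overexpression set, so the replicate number was not taken to pair the libraries. A replicate block gave 6 members lower with the knockout label (1706 genes called) and 5 higher with the overexpression label (284 genes called), and changed no other unadjusted count of members. After adjustment the block left 147 of 984 genes and 3 of 6 members with the knockout label, and 21 of 26 genes and 0 of 1 members with the overexpression label. Members called after adjustment ranged from 0 to 6 with the knockout label, with 1 under all 4 controls, and CXCL8 with the overexpression label also lost that call with all 4 controls and with either library batch alone. Where a group was left with 1 library, that library was assumed to vary like the other groups. The U11 difference ranged from 9.06 to 14.8 TPM and from 12.1 to 24.4 TPM without a library.

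Depth limits CXCL5 most, and the 2 libraries per group limit every result. By the study's methods the modified cells were selected as clones of 1 cell line, and the U11 level went against the knockout label.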
